A study of Homo sapiens with 16 samples.

Results

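The immediate early transcription factors of the AP-1 and EGR families were followed as 10 genes, taken by symbol from the 23260 gene symbols of the deposited expression table. They are 4 Fos genes (FOS, FOSB, FOSL1, FOSL2), 3 Jun genes (JUN, JUNB, JUND) and 3 Egr genes (EGR1, EGR2, EGR3). The rule used symbols alone, and all 10 have a row in the table.

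The samples were 16 tumors grown from A375, a human melanoma line with mutant BRAF, injected under both flanks of NOG mice (NOD/Scid/IL2γR-/-), an immunodeficient strain. Of the 4 groups, control mice received the vehicle alone, a mixture of DMSO and 2-hydroxypropyl-β-cyclodextrin. The J mice received JQ1, an inhibitor of the BET bromodomain proteins, at 50 mg/kg per day, the V mice received Vemurafenib, which inhibits BRAF, in 2 doses per day of 25 mg/kg each, and the J+V mice received both drugs. Tumors were removed on day 5 of treatment, and RNA depleted of ribosomal RNA was sequenced. Each group held 4 tumors from 2 mice, so that the left (L) and right (R) tumor of a mouse share an animal, and 1 cell line stands for the disease in hosts that lack lymphocytes. The p-values therefore measure the spread among tumors of 2 mice per group. In bulk tumors, fewer cells of a type and less RNA per cell cannot be told apart.

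Fos and Jun proteins are basic leucine zipper factors that pair with each other to form AP-1, which binds the TRE and CRE motifs of DNA. Egr proteins are zinc finger factors that bind a GC-rich motif. In melanoma with mutant BRAF the kinases MEK and ERK are constantly active, and ERK acts on these genes through serum response factor and its ternary complex partners at CArG boxes, and on the proteins themselves by phosphorylation. FOS, FOSB and the Egr genes are known for brief induction within an hour of a stimulus, whereas FOSL1, which encodes FRA-1, depends on sustained ERK activity.

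The genes differ in structure as well as in timing. On GRCh37, the build of the deposited values, JUN (chr1:59242517-59249720, minus strand), JUNB (chr19:12902300-12904129, plus strand) and JUND (chr19:18390504-18392432, minus strand) each have 1 exon. FOS (chr14:75745529-75748933, plus strand), FOSB (chr19:45971253-45978437, plus strand), FOSL1 (chr11:65659520-65668044, minus strand) and FOSL2 (chr2:28615315-28640184, plus strand) each have 4 exons. EGR1 (chr5:137801168-137804992, plus strand), EGR2 (chr10:64571756-64578927, minus strand) and EGR3 (minus strand) each have 2 exons. Exons of JUNB lie opposite exons of HOOK2, and exons of EGR3 lie opposite those of another annotated gene. Exons of EGR2 overlap another annotated gene on the same strand. The sources used here do not state whether strand was used to compute the values, so reads of the opposite neighbours may be included. Strand cannot separate the EGR2 neighbour in either case.

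The promoters show how the regulatory letters differ among the members. RefSeq sequences on GRCh38.p14, another build than that of the expression values, were matched for 8 of the 10 genes, and FOSL1 and EGR3 were not in the table used. The 250 bases before each start were searched on both strands for the CRE (TGACGTCA), the TRE (TGANTCA), the EGR motif (GCGNGGGCG), the CArG box and the TATA motif (TATAAA), and no matches overlapped. Of 35116 promoters of the same length, 1.16% held a CArG box, 1.65% a CRE, 6.57% a TRE, 8.41% an EGR motif and 10.7% a TATA motif. In this window EGR1 and EGR2 held CArG boxes, FOS a TATA motif, JUND a CRE and JUN none of these letters, and these genes are shown here. Capitals mark the matches, and each sequence reads 5′ to 3′ on the strand of its gene.
EGR1 (chr5:138465229-138465478, plus strand): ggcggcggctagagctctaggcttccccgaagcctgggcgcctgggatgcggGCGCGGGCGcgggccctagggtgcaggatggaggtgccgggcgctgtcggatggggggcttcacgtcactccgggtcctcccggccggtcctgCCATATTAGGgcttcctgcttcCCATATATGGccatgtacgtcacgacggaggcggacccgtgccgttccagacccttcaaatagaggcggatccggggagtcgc
EGR2 (chr10:62816367-62816616, minus strand, 1 of 3 starts in the table): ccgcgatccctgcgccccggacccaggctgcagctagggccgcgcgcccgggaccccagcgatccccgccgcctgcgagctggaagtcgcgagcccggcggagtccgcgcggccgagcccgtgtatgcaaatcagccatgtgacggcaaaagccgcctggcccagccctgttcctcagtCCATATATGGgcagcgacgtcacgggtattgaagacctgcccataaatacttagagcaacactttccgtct
FOS (chr14:75278578-75278827, plus strand): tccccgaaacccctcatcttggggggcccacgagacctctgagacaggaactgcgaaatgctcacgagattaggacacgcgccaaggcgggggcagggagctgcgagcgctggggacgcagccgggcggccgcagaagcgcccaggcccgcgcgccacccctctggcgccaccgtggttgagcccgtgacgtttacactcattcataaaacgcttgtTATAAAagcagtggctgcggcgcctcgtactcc
JUND (chr19:18281623-18281872, minus strand): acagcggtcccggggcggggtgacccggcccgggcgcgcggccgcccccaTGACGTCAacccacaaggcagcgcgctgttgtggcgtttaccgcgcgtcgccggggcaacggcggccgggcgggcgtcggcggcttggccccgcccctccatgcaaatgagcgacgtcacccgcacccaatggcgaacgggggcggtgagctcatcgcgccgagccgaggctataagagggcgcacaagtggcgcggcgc
JUN (chr1:58784048-58784297, minus strand): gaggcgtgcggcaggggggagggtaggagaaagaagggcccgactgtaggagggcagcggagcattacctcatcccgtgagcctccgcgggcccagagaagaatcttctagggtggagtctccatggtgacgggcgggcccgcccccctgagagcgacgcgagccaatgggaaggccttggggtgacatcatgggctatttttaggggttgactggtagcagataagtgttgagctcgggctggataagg
In EGR1 the EGR motif lay 198 to 190 bases before the start, and the CArG boxes lay at 105 to 96 and at 83 to 74 bases. The EGR2 start shown had a CArG box at 71 to 62 bases, and the other EGR2 entries had none. JUNB and FOSB, like FOS, held a TATA motif about 30 bases before the start, and FOSL2 held none of the 5 motifs. A match describes letters only, and binding was not measured in these tumors. Bases farther from the start and near matches with other letters were not searched. A gene without a match, such as FOS for the CArG box, may therefore hold the motif elsewhere or in another form.

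In the J+V tumors, FOSL1, FOSL2, JUN and JUND were lower than in control, whereas FOS and the Egr genes were not called in either direction. FOSL1 fell furthest among the 10 genes, to 28.8% of its control mean. Neither drug alone gave a called difference from control in any of the 10 genes, nor in any other gene tested (0% of all genes). Levels are FPKM, fragments scaled by transcript length and by the mapped fragments of the tumor, as deposited. Differences are on the log2(FPKM + 0.5) scale from limma, with a 95% interval, and a gene was called at a Benjamini-Hochberg adjusted p below 0.05 over the 13426 genes tested. Of the 10 genes, 9 reached an FPKM of 1 in at least 4 tumors and were tested, and FOSB did not. In J+V against control, 4 of the 9 were called, all lower, beside 37.1% of all genes called, with 20.5% called lower and 16.6% higher. At an unadjusted p below 0.05 JUNB joined them, beside 47.1% of all genes. FOSL1, FOSL2 and JUND had lower values in every J+V tumor than in every control tumor, beside 16.4% of all genes, and none was higher throughout, beside 12.9%.

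**Figure D1:**
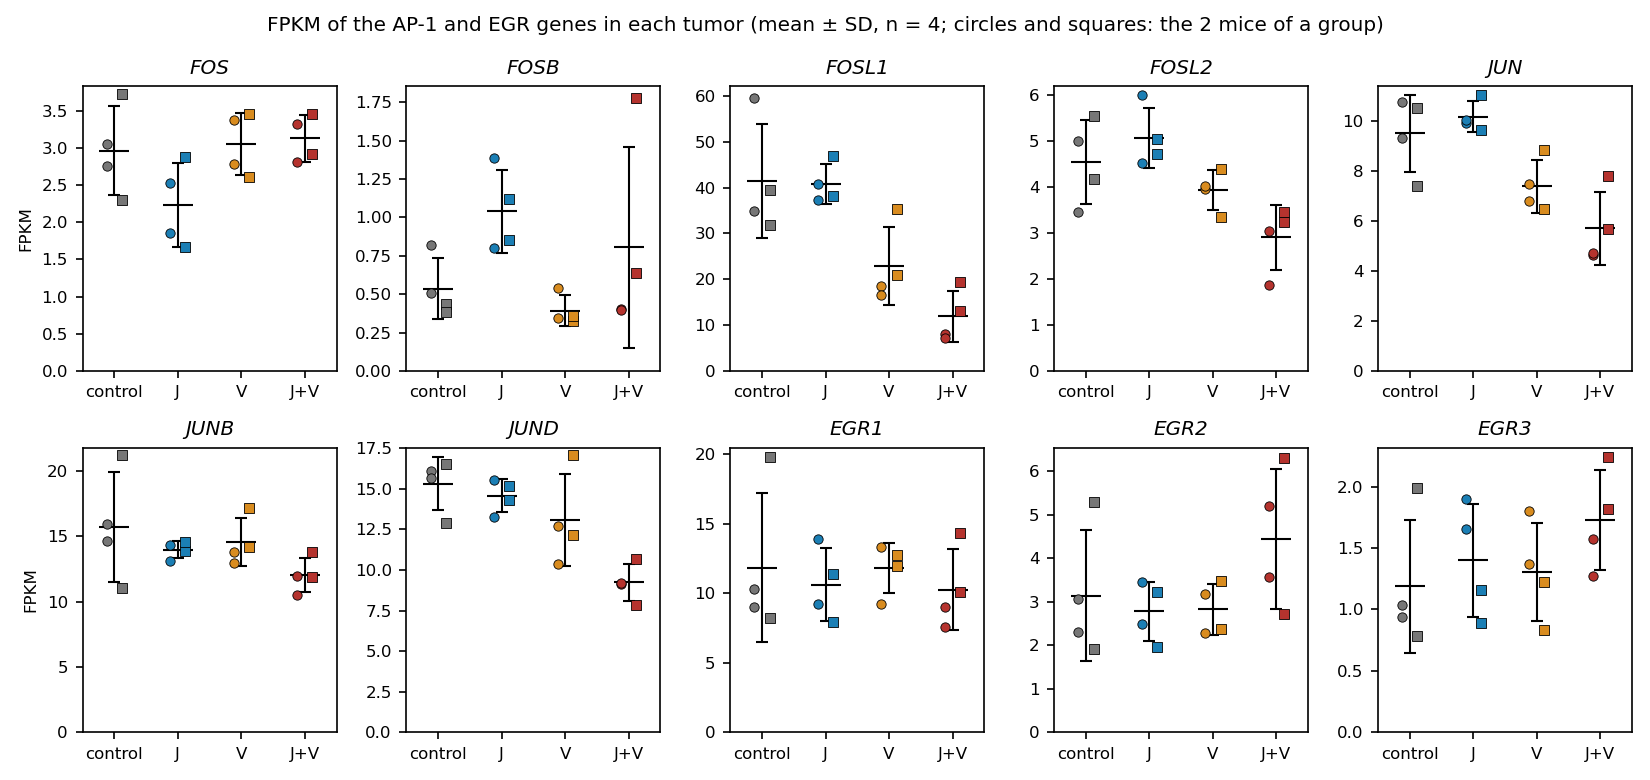
FPKM (vertical axis) of the 10 genes in each of the 16 tumors by treatment group, 1 point per tumor, the marker shape telling the mice apart, with mean and SD as black lines (n = 4). All 4 J+V tumors lay below all 4 control tumors for FOSL1, FOSL2 and JUND, while these groups overlapped for the other 7 genes.

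FOSL1, whose product FRA-1 is an AP-1 partner linked to invasion, was the most abundant of the 10 genes in control tumors. Its FPKM was 34.9, 59.5, 39.4 and 31.8 in control tumors 2L, 2R, 5L and 5R, and 37.3, 40.7, 47.0 and 38.2 in J tumors 26L, 26R, 29L and 29R. It was 18.5, 16.6, 20.9 and 35.3 in V tumors 16L, 16R, 19L and 19R, and 8.01, 7.21, 19.4 and 13.1 in J+V tumors 33L, 33R, 34L and 34R. Every J+V tumor was below every control and every J tumor, whereas V tumor 19R overlapped the control range and J+V tumor 34L overlapped the V range. The group means were 41.4 ± 12.5 in control, 40.8 ± 4.36 in J, 22.8 ± 8.49 in V and 11.9 ± 5.61 in J+V (SD, n = 4).

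The FOSL1 difference of J+V from control was -1.82 (SE 0.281, interval -2.42 to -1.22, limma adjusted p = 0.000299). Adding Vemurafenib to JQ1 went with a difference of -1.83 in J+V against J (limma adjusted p = 0.000564). Adding JQ1 to Vemurafenib went with a difference of -0.95 in J+V against V (SE 0.281, interval -1.55 to -0.35, limma adjusted p = 0.0375). This last call was lost when any 1 of V tumors 19L and 19R, J+V tumors 33L and 33R and control tumor 5L, or both tumors of mouse 19, 26, 29 or 33, were left out, with limma adjusted p of 0.0622 to 0.378 in the fits that lost it (a difference of -0.44 without mouse 33). It was also lost with no filter, on the mean of each mouse and with only the groups compared. FOSL1 did not differ detectably between J and control, at 0.02 with an interval of -0.58 to 0.62 (limma adjusted p = 0.996). V against control was -0.86 with an interval of -1.46 to -0.26, which missed the threshold after adjustment over all genes (unadjusted p = 0.00781, limma adjusted p = 0.178).

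FOSL2, which encodes FRA-2, stood far below FOSL1 in control. Its FPKM was 3.462, 4.99, 4.18 and 5.54 in control tumors 2L to 5R, and 4.52, 5.99, 5.04 and 4.72 in J tumors 26L to 29R. It was 3.96, 4.01, 3.35 and 4.40 in V tumors 16L to 19R, and 1.88, 3.05, 3.456 and 3.24 in J+V tumors 33L to 34R. The J+V tumors lay below the control tumors by a margin of less than 0.01 FPKM between 34L and 2L, and 34L was inside the V range. FOSL2 was lower, at -0.57, in J+V against control (SE 0.156, limma adjusted p = 0.0103) and at -0.73 against J (limma adjusted p = 0.00408). The call against control was lost without both tumors of mouse 5 or of mouse 33, with limma adjusted p up to 0.0876. Against V, FOSL2 gave -0.40 with an interval of -0.74 to -0.07 (limma adjusted p = 0.0995).

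FOS, the prototype of the family, had overlapping levels in all 4 groups. It measured 3.05, 2.76, 2.30 and 3.73 FPKM in control, 2.53, 1.86, 1.67 and 2.88 in J, 3.37, 2.78, 2.62 and 3.46 in V, and 2.81, 3.33, 2.92 and 3.46 in J+V. The lowest FOS values were in J tumors 26R and 29L. The difference of J+V from control was 0.08 with an interval of -0.23 to 0.39 (limma adjusted p = 0.690), which leaves out a change of the size seen for FOSL1. FOS was higher, at 0.43, in J+V against J (SE 0.146, interval 0.12 to 0.74, limma adjusted p = 0.0411). That call was lost when any 1 of J tumors 26R and 29L, J+V tumors 33R and 34R, V tumor 16R and control tumor 5L, or both tumors of mouse 16, 26, 29, 33 or 34, were left out, with limma adjusted p of 0.0508 to 0.159 in the fits that lost it. It was also lost without the mouse block (limma adjusted p = 0.0574), with no filter (limma adjusted p = 0.0677) and with only the groups compared (limma adjusted p = 0.0626).

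FOSB, the least abundant of the 10 genes, encodes a Fos protein known from neurons and bone. It reached 1 FPKM in 3 of the 16 tumors, so it was not in the fit across genes. Its FPKM was 0.505, 0.822, 0.435 and 0.386 in control, 0.799, 1.39, 0.85 and 1.12 in J, 0.541, 0.347, 0.324 and 0.355 in V, and 0.404, 0.4001, 1.78 and 0.639 in J+V. The J tumors lay above all V tumors and overlapped control only at tumor 2R, and J+V tumor 34L stood far above the other J+V tumors. In an exact two-sided permutation test, J against V gave p = 0.0286, the smallest that 4 against 4 tumors allow, or 0.171 adjusted over 6 comparisons. J against control gave p = 0.0571 (exact permutation test, 0.171 adjusted), and J+V against control gave p = 0.657 (exact permutation test). The permutation exchanged single tumors without regard to the mouse, so it treated the flanks of a mouse as independent.

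Among the Jun genes, JUN and JUND fell with the combination. JUN, the AP-1 subunit activated by the JNK kinases, measured 9.30, 10.8, 7.40 and 10.5 FPKM in control, 9.92, 10.03, 9.62 and 11.1 in J, 6.79, 7.48, 6.45 and 8.84 in V, and 4.65, 4.71, 7.79 and 5.68 in J+V. J+V tumor 34L was above control tumor 5L, so these groups overlapped for JUN by 1 tumor, and no J+V tumor reached the J range. JUN was lower, at -0.70, in J+V against control (SE 0.146, interval -1.01 to -0.39, limma adjusted p = 0.00201) and at -0.81 against J (limma adjusted p = 0.00149). Against V, JUN gave -0.36 with an interval of -0.68 to -0.05 (limma adjusted p = 0.107).

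JUND, which is known for steady expression in many cells, measured 16.1, 15.7, 12.9 and 16.5 FPKM in control, 13.3, 15.6, 14.3 and 15.2 in J, 10.4, 12.7, 12.1 and 17.1 in V, and 9.16, 9.22, 10.7 and 7.86 in J+V. The highest J+V value, in tumor 34L, was below the lowest control value, in tumor 5L, and it overlapped only V tumor 16L. JUND was lower, at -0.70, in J+V against control (SE 0.125, interval -0.97 to -0.43, limma adjusted p = 0.000776), at -0.64 against J (limma adjusted p = 0.00256) and at -0.46 against V (SE 0.125, limma adjusted p = 0.0251). The call against V was lost when any 1 of V tumor 19R, J+V tumors 33L, 33R and 34R and control tumor 5L, or both tumors of mouse 19, 29, 33 or 34, were left out, with limma adjusted p of 0.0501 to 0.173 in the fits that lost it. It was also lost on the mean of each mouse and with only the groups compared.

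JUNB, a Jun protein that can oppose JUN at some targets, measured 15.9, 14.7, 11.1 and 21.2 FPKM in control, 13.1, 14.3, 13.8 and 14.6 in J, 13.8, 12.9, 14.2 and 17.2 in V, and 10.5, 12.0, 13.8 and 11.9 in J+V. Control tumors 5L and 5R, from the same mouse, held the lowest and the highest JUNB values of that group, and all J+V tumors but 33L lay above 5L. J+V against control gave -0.34 with an interval of -0.64 to -0.04 for JUNB (limma adjusted p = 0.0685). It was called lower without control tumor 5L, J+V tumor 34L or both tumors of mouse 5, on the mean of each mouse, and when values were rescaled to TPM, the FPKM brought to an equal sum in each tumor (limma adjusted p of 0.00181 to 0.049 in the 5 fits that called it).

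The Egr genes kept overlapping levels in all 4 groups. EGR1, the most abundant of them and an early readout of ERK signaling, measured 10.3, 9.02, 8.23 and 19.8 FPKM in control, 13.9, 9.22, 7.94 and 11.4 in J, 9.20, 13.3, 12.7 and 12.0 in V, and 7.58, 8.98, 14.4 and 10.1 in J+V. Control tumor 5R was above all other tumors for EGR1, and the other 15 tumors spread between 7.58 and 14.4 FPKM. J+V against control gave -0.15 for EGR1 with an interval of -0.66 to 0.37 (limma adjusted p = 0.652). Any difference within that interval, lower or higher, remains compatible with these tumors.

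EGR2, known for its role in Schwann cells and lymphocytes, measured 3.06, 2.30, 1.91 and 5.29 FPKM in control, 3.45, 2.49, 1.97 and 3.21 in J, 2.28, 3.17, 2.38 and 3.47 in V, and 3.57, 5.19, 2.72 and 6.30 in J+V. The highest value was in J+V tumor 34R, and 3 of 4 J+V tumors were above all J and V tumors. EGR2 gave 0.47 in J+V against control with an interval of -0.08 to 1.01 (limma adjusted p = 0.165), and it was called higher without control tumor 5R (0.72, limma adjusted p = 0.0300) and on the mean of each mouse (0.47, limma adjusted p = 0.0355). Against J, EGR2 gave 0.56 (limma adjusted p = 0.12) and was called higher on the mean of each mouse and without J+V tumor 34L (limma adjusted p = 0.0329 and 0.0431). EGR3, an Egr gene that EGR1 can induce, measured 1.04, 0.943, 0.787 and 1.99 FPKM in control, 1.90, 1.66, 0.887 and 1.16 in J, 1.80, 1.37, 1.22 and 0.832 in V, and 1.28, 1.57, 2.24 and 1.82 in J+V. All J+V tumors were above 3 of the 4 control tumors for EGR3. Its difference of 0.43 had an interval of -0.05 to 0.91 (limma adjusted p = 0.145), and it too was called higher without control tumor 5R (0.63, limma adjusted p = 0.0315).

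**Figure D2:**
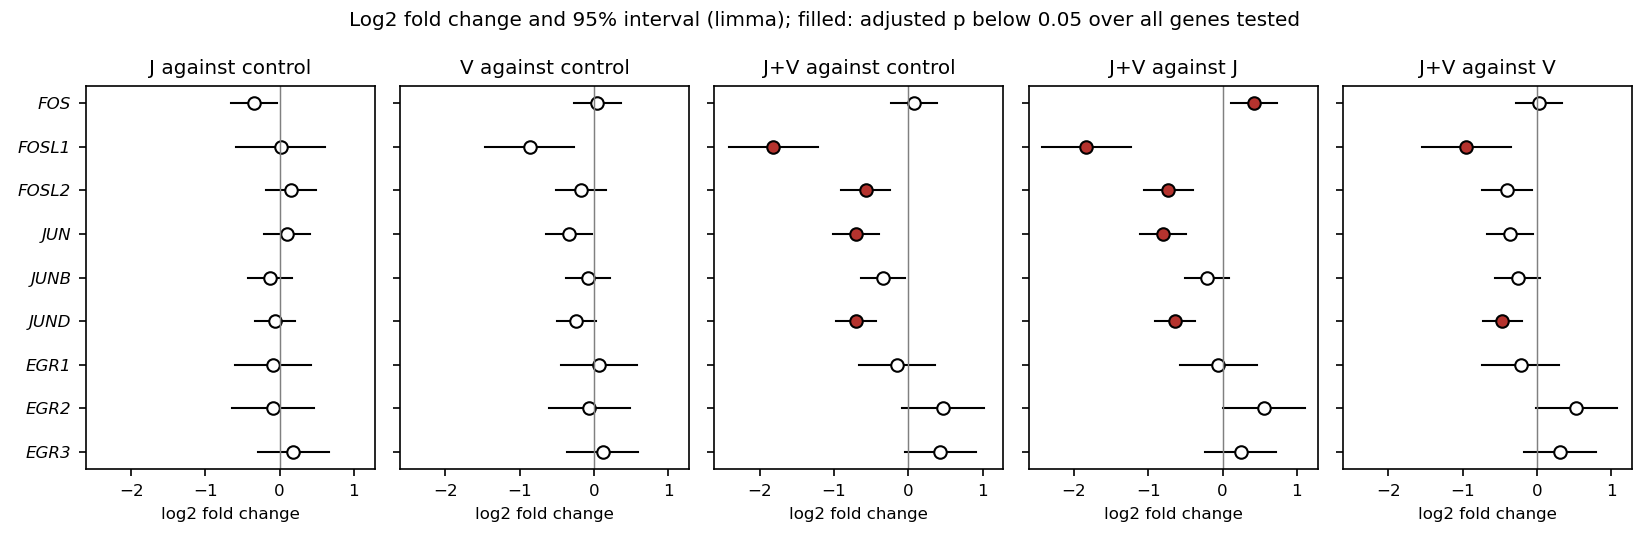
Differences in log2(FPKM + 0.5) from limma for the 9 tested genes (horizontal axis) in 5 comparisons, with lines for the 95% interval and filled points for called genes. In J+V against control FOSL1 lies at -1.82, FOSL2, JUN and JUND lie between -0.70 and -0.57, and the intervals of FOS and the Egr genes include 0.

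The single drugs gave no called member. In J against control no gene of 13426 was called by limma (0% of all genes, and 8.49% at an unadjusted p below 0.05), and FOS was the 1 member of 9 past that unadjusted threshold, at -0.35 (unadjusted p = 0.0308, limma adjusted p = 0.528). In V against control no gene was called either (0% of all genes, and 16.1% at an unadjusted p below 0.05), and FOSL1 and JUN were past the unadjusted threshold, JUN at -0.34 (unadjusted p = 0.0353, limma adjusted p = 0.277). No member separated the J tumors completely from control, beside 1.66% of all genes lower and 3.33% higher throughout, and none separated the V tumors, beside 1.99% and 1.87%.

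Between the single drugs, 0.283% of all genes were called and no member was. FOSL1, FOSL2 and JUN were nevertheless higher in every J tumor than in every V tumor, beside 4.77% of all genes, and no member was lower throughout, beside 2.66%. FOSL1 differed by 0.88 in J against V (interval 0.28 to 1.48, limma adjusted p = 0.220), JUN by 0.44 (interval 0.13 to 0.75, limma adjusted p = 0.229) and FOSL2 by 0.33 (interval -0.01 to 0.66, limma adjusted p = 0.433). FOS gave -0.39 in the other direction (interval -0.71 to -0.08, limma adjusted p = 0.288).

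Against the single drugs, the combination gave more called members next to J than next to V, as it did over all genes (27% and 13.3%). In J+V against J, 5 of 9 members were called, FOSL1, FOSL2, JUN and JUND lower and FOS higher, beside 27% of all genes called, 18.4% lower and 8.67% higher. With EGR2, 6 of 9 were past an unadjusted p of 0.05, beside 39.8% of all genes, and the 4 lower members were lower in every J+V tumor than in every J tumor, beside 22.2%, with none higher throughout, beside 12.9%. In J+V against V, FOSL1 and JUND were called lower, beside 13.3% of all genes called and 8.31% called lower. FOSL1, FOSL2, JUN and JUND were past an unadjusted p of 0.05, beside 30.2% of all genes. No member separated those groups completely, beside 9.15% of all genes lower and 6.55% higher throughout. These comparisons share the J+V tumors, so their calls are not independent of each other.

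Whether the combination departed from the sum of the single drugs on the log2 scale was tested as (J+V minus J) minus (V minus control). No gene was called by limma (0% of all genes, and 12.6% at an unadjusted p below 0.05). FOSL1 departed by -0.97 with an interval of -1.82 to -0.12 (limma adjusted p = 0.328), FOSL2 by -0.56 with an interval of -1.03 to -0.09 (limma adjusted p = 0.317), JUN by -0.47 (limma adjusted p = 0.362) and JUND by -0.40 (limma adjusted p = 0.367). All 4 were past the unadjusted threshold and none past the adjusted one. Without both tumors of mouse 34, FOSL1 and JUN were called in this test, in a fit that called 360 genes in all.

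The balance within each family was followed through the summed FPKM of its members, which are per length and so can be added. FOSL1 made up most of the Fos sum in control, and the sum moved with it, from 49.5 ± 12.6 FPKM in control and 49.1 ± 4.10 in J to 30.2 ± 8.99 in V and 18.8 ± 6.69 in J+V (SD, n = 4). The FOSL1 share of that sum was 83.1% ± 4.59 in control, 82.9% ± 2.22 in J, 74.5% ± 5.43 in V and 61.8% ± 7.84 in J+V (SD, n = 4). The J+V shares ran from 51.6% to 70.4% and lay below the control shares of 76.7% to 87.4%. The FOS share was 6.33% ± 2.24 in control and 18.2% ± 5.80 in J+V (SD, n = 4), although the FOS level itself did not differ detectably.

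The Jun sum was 40.5 ± 6.96 FPKM in control, 38.7 ± 2.02 in J, 35.0 ± 5.48 in V and 27.0 ± 3.56 in J+V (SD, n = 4). Its composition moved less than that of the Fos sum, with JUNB at 38.4% ± 4.02 in control and 44.7% ± 2.08 in J+V (SD, n = 4). The Egr sum was 16.2 ± 7.41 FPKM in control and 16.4 ± 3.06 in J+V (SD, n = 4), and EGR1 made up 73.4% ± 1.54 of it in control and 61.9% ± 8.57 in J+V. The shares are descriptions, since each follows from the member levels already given.

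**Figure D3:**
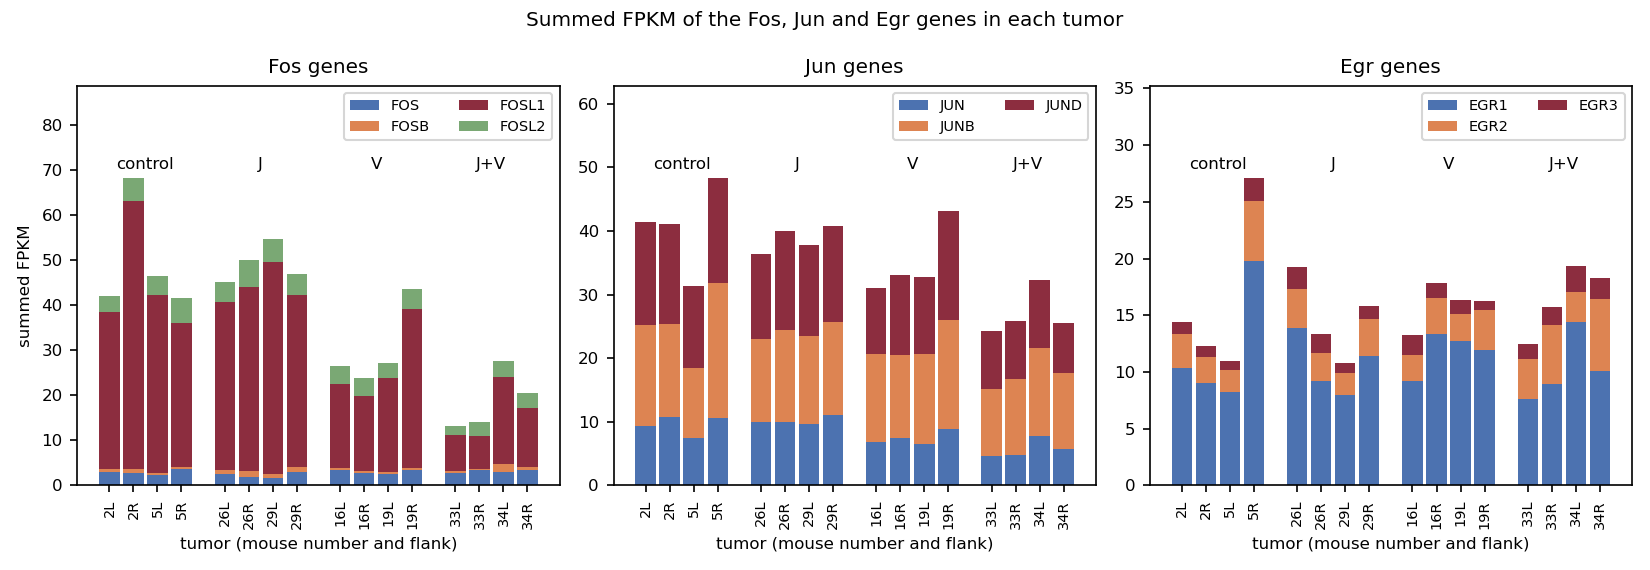
Summed FPKM (vertical axis) of the Fos, Jun and Egr genes in each of the 16 tumors, named by mouse and flank and ordered by group, 1 stacked bar per tumor split by gene. The FOSL1 segment is 31.8 to 59.5 FPKM in the control tumors and 7.21 to 19.4 in the J+V tumors, while the Egr bars of both groups overlap.

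The order of the levels changed with treatment at its top. In control the order was FOSL1, JUNB, JUND, EGR1, JUN, FOSL2, EGR2, FOS, EGR3 and FOSB, and the ranges of neighbours overlapped except between FOSL1 and JUNB, between JUN and FOSL2 and between FOS and EGR3. In J, FOSL1 again stood clear of the next gene, JUND. In V its range reached that of JUNB. In J+V, JUNB (12.0 ± 1.33 FPKM) and FOSL1 (11.9 ± 5.61) led with overlapping ranges, followed by EGR1, JUND and JUN. FOSL2 dropped in rank from the sixth place in control to the eighth in J+V, where its range overlapped those of FOS and EGR3.

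Tumors of the same group differed most in FOSL1 and the Egr genes. The SD within groups on the log2(FPKM + 0.5) scale was 0.447 for FOSL1, where the 500 genes nearest in mean level had a median of 0.156. It was 0.390 for EGR1 beside a median of 0.181 and 0.418 for EGR2 beside 0.222, whereas FOS, at 0.222 beside 0.224, varied like other genes of its level. For FOSL1 the mice differed more than the flanks, with a mean absolute difference of 0.529 between mouse means and 0.384 between tumors of a mouse. The fit did not widen the FOSL1 intervals for this, so they may be too narrow. For EGR2 the tumors of a mouse differed by 0.628 and the mouse means by 0.138, and for FOS the corresponding values were 0.341 and 0.0265.

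Some members moved together in single tumors. With group means removed, r between tested members ran from -0.323 (FOSL1 and EGR2) to 0.765 (FOS and EGR2). Control tumor 5R was the highest of its group for 7 of the 10 genes and tumor 5L of the same mouse was the lowest for 7. Over all symbols 5R also had the highest median FPKM of its group (1.67) and 5L the lowest (1.53). How often other genes had these extremes was not counted. In J+V, mouse 33 had a mean FOSL1 of 7.61 FPKM and mouse 34 of 16.2, and JUN was 4.68 in mouse 33 and 6.73 in mouse 34. J+V tumor 34L held the highest value of its group for 8 genes, with the lowest median over all symbols there (1.63). The spread of FOSL1 between the V mice was of the same kind, 17.6 FPKM in mouse 16 and 28.1 in mouse 19.

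Around the members, other genes of the pathway were counted from lists set by symbol, to be read beside the 20.5% of all genes called lower and 16.6% called higher in J+V against control. The lists were chosen with earlier results of these data known, so their counts are descriptions. Of the 7 tested among 12 other bZIP partners of AP-1, 2 were called higher and 2 lower in J+V against control. MAFF, a small Maf protein, was lower, at -0.77 (SE 0.122, limma adjusted p = 0.000352), and MAF, a large Maf factor, was higher, at 0.66 (limma adjusted p = 0.00861). Of 2 tested genes among 3 Egr relatives and corepressors, NAB1, which binds Egr proteins and holds back their activity, was called higher, at 0.60 (SE 0.0959, limma adjusted p = 0.000364), from 22.5 ± 1.43 FPKM in control to 34.7 ± 4.73 in J+V (SD, n = 4). It was also called higher against J and against V.

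Upstream of the members, 1 of 6 genes for serum response factor and its partners was called lower and 1 higher. ELK3, a ternary complex factor, was lower, at -0.42 (limma adjusted p = 0.00409), and MKL2, a myocardin-related coactivator, was higher, at 0.41 (limma adjusted p = 0.00805). Of 13 genes for kinases of the ERK and JNK cascades, 7 were called lower and none higher, with a median difference of -0.31 beside -0.03 over all genes. MAP2K1, which encodes MEK1, was lower, at -0.60 (SE 0.0642, limma adjusted p = 3.15e-05), and RPS6KA1, which encodes the ERK substrate RSK1, was lower, at -0.57 (limma adjusted p = 0.00306). These are transcript levels and say nothing of kinase activity, which was not measured in these files.

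Among 27 other immediate early genes, 23 were tested, 10 were called lower and 1, the antiproliferative gene BTG1, higher, with a median difference of -0.22. IER5 was lower, at -1.30 (SE 0.178, limma adjusted p = 0.000131), from 8.22 ± 0.820 FPKM in control to 3.04 ± 0.438 in J+V (SD, n = 4), and the stress gene GADD45B was at -1.20 (limma adjusted p = 0.0063). Of 15 genes known as output of ERK signaling, 4 were called lower and 2 higher, which is near the 37.1% called over all genes and is no result about that list. The receptor gene EPHA2 was lower, at -1.67 (SE 0.310, limma adjusted p = 0.000974) and the cyclin D1 gene CCND1 was at -0.83 (limma adjusted p = 0.000313). The 2 called higher were ETV1, at 0.32 (limma adjusted p = 0.00282), and SPRED1, at 0.31 (limma adjusted p = 0.0117).

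Of 18 genes known as AP-1 targets, 13 were tested, 8 were called lower and 1, the protease inhibitor gene TIMP1, higher. The study had already reported the listed genes MMP1, TGFA and HMGA1 as lower in these combination tumors, so the count partly repeats it. CCND1 stands both in this list and in that of ERK output. The median difference of the tested AP-1 targets was -0.78 in J+V against control and -0.47 in V against control, where none was called. MMP1, a collagenase gene with an AP-1 motif in its promoter, was 41.8 ± 26.3 FPKM in control, 30.3 ± 8.25 in J, 22.7 ± 2.87 in V and 6.58 ± 4.71 in J+V (SD, n = 4). It was lower, at -2.58, in J+V against control (SE 0.419, limma adjusted p = 0.00042). PLAUR, the urokinase receptor gene, was 22.2 ± 2.54 in control, 19.9 ± 2.33 in J, 15.5 ± 1.89 in V and 6.22 ± 2.37 in J+V (SD, n = 4), and was lower, at -1.82 (SE 0.195, limma adjusted p = 3.2e-05). Against J, 9 of the 13 were called lower beside 18.4% of all genes, and against V 3 were, beside 8.31%.

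**Figure D4:**
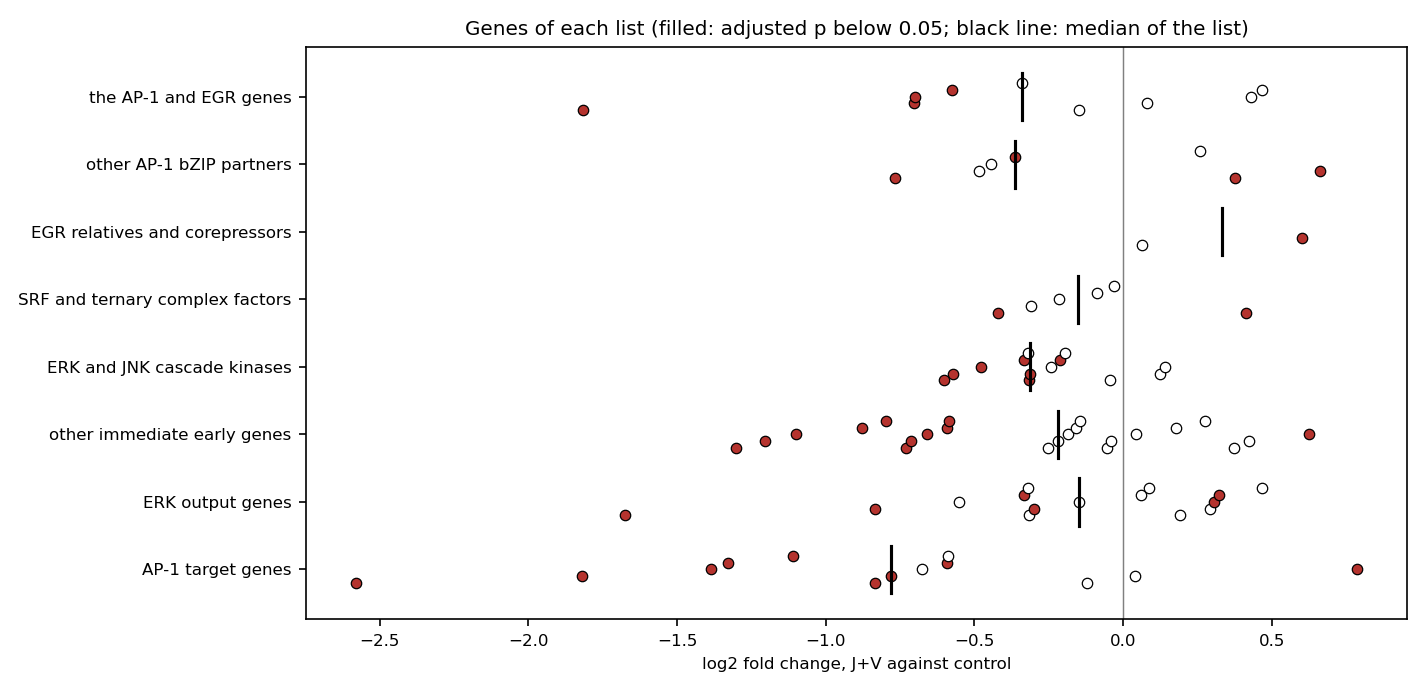
Differences in log2(FPKM + 0.5) for J+V against control of the tested genes in each list, 1 point per gene, filled where called, with the list median as a black line. The median of the AP-1 target list lies at -0.78 and that of the ERK and JNK cascade kinases at -0.31, beside -0.03 over all genes.

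Immediate early genes respond to the handling of tissue, so 7 heat shock genes were read beside them. In J+V against control 6 of the 7 were called lower and none higher, with a median of -0.45. In V against control all 7 lay below 0, with a median of -0.32 and none called. None was called in J+V against V either. HSPA1B was lower in J+V against control, at -0.75 (limma adjusted p = 0.00428), and HSPA1A at -0.66 (limma adjusted p = 0.00892). FOS, EGR1, EGR2 and EGR3 were not called in J+V against control. The part of tissue handling in these differences was not tested.

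The genes most like each member over the 16 tumors were named by Pearson r of log2(FPKM + 0.5), as a description in which tumors share mice and treatment groups. FOSL1 was most like DTL (r = 0.992), EPHA2 (0.977) and HIST1H3B (0.975), of which DTL and HIST1H3B act in DNA replication and chromatin. JUN was most like LOC81691 (0.954), CCND1 (0.942) and MAFF (0.940). JUND was most like LONP1 (0.946), DGKZ (0.946) and ZYX (0.944), and FOSL2 most like ITGB1BP1 (0.935), UQCRC1 (0.915) and C17orf53 (0.914). JUNB was most like KIAA0889 (0.905), DCAF15 (0.902) and KDM5C (0.884). The single closest gene of each of EGR3, EGR2, FOS and EGR1 had a lower r than that of every other tested member. Since r spans all groups, a member that differs between groups can gain r through that difference. EGR3 was most like FBXO32 (0.892), PAM (0.889) and FAM20A (0.849), EGR2 most like HTRA1 (0.848), MIA (0.847) and MRAS (0.841), FOS most like SLC26A1 (0.830), PCTP (0.819) and DNAJC1 (0.788), and EGR1 most like KDM2A (0.803), PER1 (0.8) and C17orf39 (0.780).

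The label of the cells was read from marker genes. Of 8 melanocyte lineage markers, SOX10, MITF, MLANA and S100B had a median of at least 1 FPKM over the 16 tumors, PMEL, TYR and TYRP1 were lower and DCT was listed at 0 in all 16. Their summed level was 34.6 to 51.2 FPKM in control and 70.2 to 100.5 in J+V, with MLANA and S100B called higher in J+V against control. All 6 fibroblast markers had a median of at least 1 FPKM, with sums of 36.2 to 121.4 in control and 62.4 to 114.9 in J+V, and DCN, LUM and PDGFRB were called higher. Of the other lists, 0 of 6 endothelial, 1 of 8 leukocyte and 1 of 5 keratinocyte markers reached that median. These were CD68 (median 21.4 FPKM) and KRT10 (median 4.91 FPKM). The defining genes MS4A1 and KRT1 were listed at 0 in all 16 tumors. Host vessels, stroma and leukocytes are of mouse, while the values are for human gene symbols. These lists therefore cannot show which host cells a tumor held, and the source of the fibroblast marker values was not tested. The part of the cell mixture in the member values was not tested. Summed FPKM ran from 970443 to 1406990 per tumor, and short RNAs took 43.3% to 54.8% of it in control and 54.2% to 61.3% in J+V. Scaled to TPM, the median of all genes in J+V against control moved from -0.03 to -0.23 and the calls from 2756 lower and 2223 higher to 4686 lower and 771 higher, and FOSL1, FOSL2, JUN and JUND were still called lower.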

How the data were processed

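RNA of 16 A375 tumors was sequenced after ribosomal RNA depletion with a stranded kit. The deposited values are FPKM per gene symbol, which the authors computed; the submitters' processing notes name bcl2fastq, TopHat, Cufflinks and hg19 without versions. Neither the annotation, nor the use of strand, nor any removal of mouse reads is stated in the sources read here. Read numbers are unknown: the lowest decile of the nonzero FPKM of olfactory receptor genes was 0.0796 to 0.128 in every tumor, and whole reads were not recovered. No column of other samples was used.

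To each FPKM 0.5 was added before log2. A gene entered the fit if 4 or more tumors reached an FPKM of 1 (13426 genes). The fit used limma 3.58.1 under R 4.3.3, with 1 term per group over all 16 tumors and a mean-variance trend. The mouse was a block, with 1 correlation of -0.07 for all genes and 12 residual degrees of freedom. Since that correlation was negative, the block did not widen intervals for tumors that share a mouse. Without the block, J+V against control gave 2571 lower and 2027 higher calls, beside 2756 and 2223 with it. For FOSL1 and EGR3 the mice differed more than the flanks, so their intervals may be too narrow and their p-values too small. Adjusted p-values of limma are Benjamini-Hochberg adjusted over these genes. Fold changes on this scale understate the change of low genes. FOSB, below the filter, was tested by two-sided exact permutation of single tumors, without the mouse as a block. The fit was tested on simulated data with independent tumors and no mouse effect, so that test does not cover the sharing of mice. Doses, the day of removal and the pairing of flanks come from the study's methods and the tumor names. Gene positions are from GENCODE 44 on GRCh37 and promoters from RefSeq on GRCh38.p14. Python 3.11.15 with pandas 2.3.3 and scipy 1.17.1 was used for the rest.

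The members, lists and markers were chosen with earlier results of these data known. Named are all 10 members, up to 2 called genes per list with the largest differences in J+V against control, and the 3 genes most like each tested member. BTG1 and TIMP1 were named after their values were seen, as the single called genes of their lists in the higher direction. ETV1 and SPRED1 were also named after their values were seen, as the ERK output genes called higher. Alternatives were the pseudocount, the filter, TPM, other scalings, the mouse block, mouse means, a fit of only the groups compared, and leaving out each tumor or mouse.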

Additional observations from a re-analysis of the deposited data

Results flagged for a closer look

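FOSB in V tumor 16L, at 0.541 FPKM, stood apart from the other V tumors, which held 0.324 to 0.355 FPKM. The gap to the nearest of them was 0.857 of the range of the group, above the critical value of the Dixon test for 4 tumors. It was the only 1 of 40 sets of 4 tumors (10 genes in 4 groups) to do so, which chance does in about 1 of 20 sets.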

How the results depend on the processing

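The lower calls of FOSL1, JUN and JUND in J+V against control were kept in all 34 alternatives, with limma adjusted p up to 0.0138, 0.0372 and 0.00978, and the called members changed sign in none of 371 values. The number of members called in J+V against J was 3 with a filter at a mean FPKM of 5, which tested 5 members. That fit called 2861 genes in all, and the main fit 3628. In J+V against V it was 1 with no filter, 5 after scaling to TPM, 0 on the mean of each mouse and 0 with only the groups compared. Over all genes these fits called 1543, 2876, 234 and 1089, beside 1786 in the main fit. The member counts thus rose and fell with those of all genes. Leaving out a tumor or a mouse gave 0 to 3 called members in J+V against V, 0 to 2 in the departure from the sum, 3 to 6 in J+V against control and 4 to 6 in J+V against J. Leaving out a tumor or a mouse gave 0 in J against control, in V against control and in J against V. FOS in J+V against J was not called without the mouse block, with no filter or with only the groups compared. Members that were not called changed sign in 78 of 1734 values. No paired analysis was possible because each mouse received 1 treatment and the groups share no mouse. With read numbers unknown, the counting error of the low genes FOSB and EGR3 could not be given. Other causes of these changes were not tested.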
